A study of Homo sapiens with 12 samples.

Results

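The 10 genes described here are transcriptional targets of p53 that act in cell cycle arrest and the response to DNA damage: CDKN1A, BTG2, MDM2, FAS, TP53I3, TP53INP1, ZMAT3, SESN1, RRM2B and GDF15. They were taken as a list of textbook p53 targets and looked up by symbol in the deposited tables, and 9 of the 10 were found among the 14862 genes with normalized counts. GDF15 had values only in the table of FPKM, fragment counts scaled to transcript length and library size, which holds 60279 genes. p53 is a transcription factor that is kept low by continuous degradation and accumulates after DNA damage, replication stress or prolonged mitosis. It then binds response elements in or near its targets, raises CDKN1A to stop the cell cycle, induces genes of repair, metabolism and cell death, and raises MDM2, which returns p53 to a low level. hTERT-RPE1, a telomerase-immortalized line from retinal pigment epithelium, is widely used to study this arrest because it keeps functional p53.

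Cells of parental, wild-type hTERT-RPE1 received 20 nM siRNA overnight and were collected 48 h after treatment, with an siRNA against CENPF (siCENPF), one against FOXM1 (siFOXM1), both together (siCENPF+siFOXM1) or a negative control siRNA (siNeg). CENPF encodes a kinetochore protein and FOXM1 a transcription factor of genes of G2 and mitosis, and the series asks what their loss does to the transcriptome. Each group had 3 polyA RNA libraries, numbered 1 to 3 in the labels, which do not say what a number stands for or that the samples came from separate cultures, so p-values measure only the spread between these samples. Whether 1 duplex or a pool was used, and the total dose with both siRNAs, are not given in the sources used here.

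Reads in genes numbered 13671250 to 35411230 per library. CENPF averaged 10.8% of its siNeg level with siCENPF and 15.8% with both siRNAs, and FOXM1 15.2% with siFOXM1 and 17.7% with both. Of 8 markers of differentiated retinal pigment epithelium 3 had normalized counts: BEST1 with 10463 to 25693.5, MITF with 379 to 684 and OTX2 with at most 78.4. RPE65 and TYR were listed at 0 FPKM in every library, and RLBP1, LRAT and TTR at no more than 0.0371. Of the simple-epithelium markers, KRT8 had 6032 to 9906 normalized counts and KRT18 4790 to 7032. KRT19, EPCAM and CDH1 of the same list had no more than 0.0379 FPKM. VIM, a mesenchymal intermediate filament, had 155061 to 185835 normalized counts. In RNA of whole cultures, fewer cells of a type and less RNA per cell cannot be told apart.

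Promoter windows were compared because the genes share a regulator. The search used the p53 response element, 20 bases made of 2 decamers with no bases between them, with at most 2 mismatches on either strand, in RefSeq windows (GRCh38.p14) reaching 250 bases before to 50 bases after an annotated start. Of the 10 genes, 8 had such windows, 16 in all, and RRM2B and TP53INP1 had none. A match stood in windows of 2 genes, MDM2 and FAS, and the MDM2 match stood in 2 overlapping windows with different starts. Among all 27305 genes with windows, 224 (0.820%) had a match, and so did 0.649% of the 35116 windows. For each of these 2 genes 1 window is shown because it holds a match. The search covered only these windows and this pattern. A gene without a match, or the rest of a window, can still hold a response element. The match is in capitals.
MDM2, chr12:68808767-68809066, plus strand: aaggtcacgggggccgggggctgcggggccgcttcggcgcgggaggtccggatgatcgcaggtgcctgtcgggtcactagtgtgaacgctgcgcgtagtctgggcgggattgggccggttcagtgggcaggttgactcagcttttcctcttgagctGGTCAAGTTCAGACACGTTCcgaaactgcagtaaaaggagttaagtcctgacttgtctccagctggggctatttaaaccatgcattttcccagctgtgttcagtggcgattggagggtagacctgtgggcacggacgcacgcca
FAS, chr10:88991181-88991480, plus strand: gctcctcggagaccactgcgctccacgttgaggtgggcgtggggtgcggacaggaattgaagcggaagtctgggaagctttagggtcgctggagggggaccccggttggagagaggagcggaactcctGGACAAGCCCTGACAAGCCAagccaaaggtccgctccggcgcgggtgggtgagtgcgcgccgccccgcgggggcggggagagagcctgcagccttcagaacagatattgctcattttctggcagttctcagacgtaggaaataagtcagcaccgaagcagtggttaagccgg
The MDM2 match, 68808923 to 68808942, begins 94 bases before the annotated start of the window shown. It is spanned by 7 GENCODE v29 transcripts and overlaps no annotated exon, so it is intronic. The FAS match, 88991309 to 88991328, begins 122 bases before its start, is spanned by 13 transcripts and overlaps 2 annotated exons. A match describes the letters in these windows, and p53 binding was not measured in this series.

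Per length, the 10 transcripts covered a wide range, and CDKN1A was by far the most abundant. On the RPKM scale, reads scaled to the kilobases of merged exons and to library size, CDKN1A averaged 105 with siCENPF, 120 with siFOXM1, 114 with both siRNAs and 108 ± 28.8 with siNeg (SD, n = 3). In siNeg cells the next levels on that scale were 18.5 ± 3.31 for FAS, 16.2 ± 0.742 for TP53I3, 11.6 ± 4.31 for ZMAT3 and 11.2 ± 2.81 for RRM2B. The remaining levels in siNeg cells were 6.27 ± 0.981 for MDM2, 4.64 ± 2.80 for TP53INP1, 3.05 ± 0.824 for SESN1 and 1.15 ± 0.314 for BTG2. The order of the means was the same in all 4 groups. FAS and TP53I3, ZMAT3 and RRM2B, MDM2 and TP53INP1, and TP53INP1 and SESN1 are neighbours that differed by less than their spread in siNeg cells. BTG2 rested on 45 to 99 reads per library and CDKN1A on 4384 to 8087, so BTG2 values carry more counting error.

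GDF15, a secreted cytokine of the TGF-beta family, was barely detected. It had 9, 4 and 4 reads in the siCENPF libraries 1 to 3, 10, 2 and 1 with siFOXM1, 1, 3 and 9 with both siRNAs, and 6, 2 and 11 with siNeg. Summed over a group, that is 0.287 RPM (reads scaled to library size) with siCENPF (exact Poisson 95% interval 0.167 to 0.459), 0.285 with siFOXM1 (0.152 to 0.488), 0.271 with both (0.144 to 0.464) and 0.292 with siNeg (0.176 to 0.455). These intervals cover counting error only, and they overlap, so no difference was detectable at this depth. Its FPKM ran from 0.0161 to 0.212.

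The 2 arrest genes differed little between siRNAs beside the spread within a group, most of which lay between replicate numbers. CDKN1A encodes p21, the cyclin-dependent kinase inhibitor through which p53 stops the cycle. It had 7452, 6997 and 4126 normalized counts in siCENPF libraries 1 to 3, 7572, 8250 and 5064 in siFOXM1, 7425, 7474 and 4902 in siCENPF+siFOXM1, and 7429, 7034 and 4328 in siNeg. Library 3 was lowest in each group, and every group overlapped every other. The log2 fold change against siNeg was -0.02 with siCENPF, 0.16 with siFOXM1 and 0.09 with both (SE 0.30 each, adjusted p 0.977 or above). BTG2, an antiproliferative protein that binds the CCR4-NOT deadenylase, had 76.8, 99.4 and 56.8 normalized counts in siCENPF, 73.8, 89.2 and 66.5 in siFOXM1, 70.2, 116 and 50.8 in siCENPF+siFOXM1, and 64.6, 73.2 and 39.4 in siNeg. Its library 2 was highest and its library 3 lowest in each group, and within each number all 3 knockdown libraries were above siNeg. The log2 fold changes of BTG2 were 0.40 with siCENPF, 0.40 with siFOXM1 and 0.38 with both (SE 0.32 each). They were the largest positive ones of the 9 genes in these comparisons and did not pass the test (adjusted p 0.869 or above). These SE include the differences between numbers. With the number as a block in limma, the SE were 0.05 for CDKN1A and 0.19 for BTG2. The blocked 95% intervals of BTG2 were 0.01 to 0.79 with siCENPF, 0.01 to 0.80 with siFOXM1 and -0.01 to 0.77 with both (adjusted p 0.214 or above).

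MDM2, the ubiquitin ligase that targets p53 for degradation, was close to level across the siRNAs. It had 2003, 1531 and 1399 normalized counts in siCENPF, 1881, 1497 and 1344 in siFOXM1, 1880, 1350 and 1385 in siCENPF+siFOXM1, and 1858, 1573 and 1316 in siNeg. Library 1 was highest in each group. The log2 fold changes against siNeg were 0.05 with siCENPF, -0.01 with siFOXM1 and -0.04 with both (SE 0.18 each, adjusted p 0.985 or above).

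The genes of cell death and related signalling each had the same library highest in all 4 groups. FAS, a death receptor of the cell surface, had 1584, 1481 and 1165 normalized counts in siCENPF, 1717, 1432 and 1171 in siFOXM1, 1610, 1400 and 1321 in siCENPF+siFOXM1, and 1833, 1402 and 1260 in siNeg. Library 1 was highest and library 3 lowest in all 4 groups. TP53I3, a quinone oxidoreductase-like enzyme linked to oxidative stress, had 609, 722 and 637 in siCENPF, 644, 828 and 602 in siFOXM1, 634, 726 and 678 in siCENPF+siFOXM1, and 718, 727 and 681 in siNeg. Library 2 was highest in each group, by a small margin in siNeg. ZMAT3, a zinc finger protein that binds RNA, had 1773, 3225 and 2102 in siCENPF, 2242, 3039 and 1849 in siFOXM1, 2333, 2961 and 2134 in siCENPF+siFOXM1, and 1726, 2965 and 1656 in siNeg. Library 2 was again highest throughout, and its log2 fold changes of 0.17 with siCENPF, 0.19 with siFOXM1 and 0.27 with both did not pass the test (SE 0.28 each).

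TP53INP1, a stress protein that promotes p53 activity and autophagy, varied most between libraries of the 9 genes. It had 260, 564 and 283 normalized counts in siCENPF, 316, 558 and 283 in siFOXM1, 380, 679 and 320 in siCENPF+siFOXM1, and 357, 822 and 302 in siNeg. Library 2 was highest in every group, and the groups overlapped. Within each number, the siCENPF and the siFOXM1 library were below the siNeg library and below the library with both siRNAs. Its log2 fold change was -0.36 with siCENPF, -0.28 with siFOXM1 and -0.03 with both siRNAs (SE 0.46 each).

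The metabolic targets showed small differences between siRNAs. SESN1, a sestrin that restrains mTORC1 signalling, had 273, 426 and 223 normalized counts in siCENPF, 297, 462 and 272 in siFOXM1, 287, 444 and 263 in siCENPF+siFOXM1, and 259, 378 and 246 in siNeg. RRM2B, the p53-inducible small subunit of ribonucleotide reductase, had 1028, 1486 and 838 in siCENPF, 1104, 1326 and 856 in siFOXM1, 1114, 1556 and 950 in siCENPF+siFOXM1, and 1171, 1460 and 906 in siNeg. In both genes library 2 was highest and library 3 lowest in each group, and the groups overlapped. Their log2 fold changes against siNeg lay between -0.10 and 0.21. Within numbers SESN1 was above siNeg in 3 of 3 with siFOXM1 (log2 differences 0.20, 0.29 and 0.15) and in 3 of 3 with both siRNAs (0.15, 0.23 and 0.10), and RRM2B was below siNeg in 3 of 3 with siFOXM1 (-0.08, -0.14 and -0.08).

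**Figure D1:**
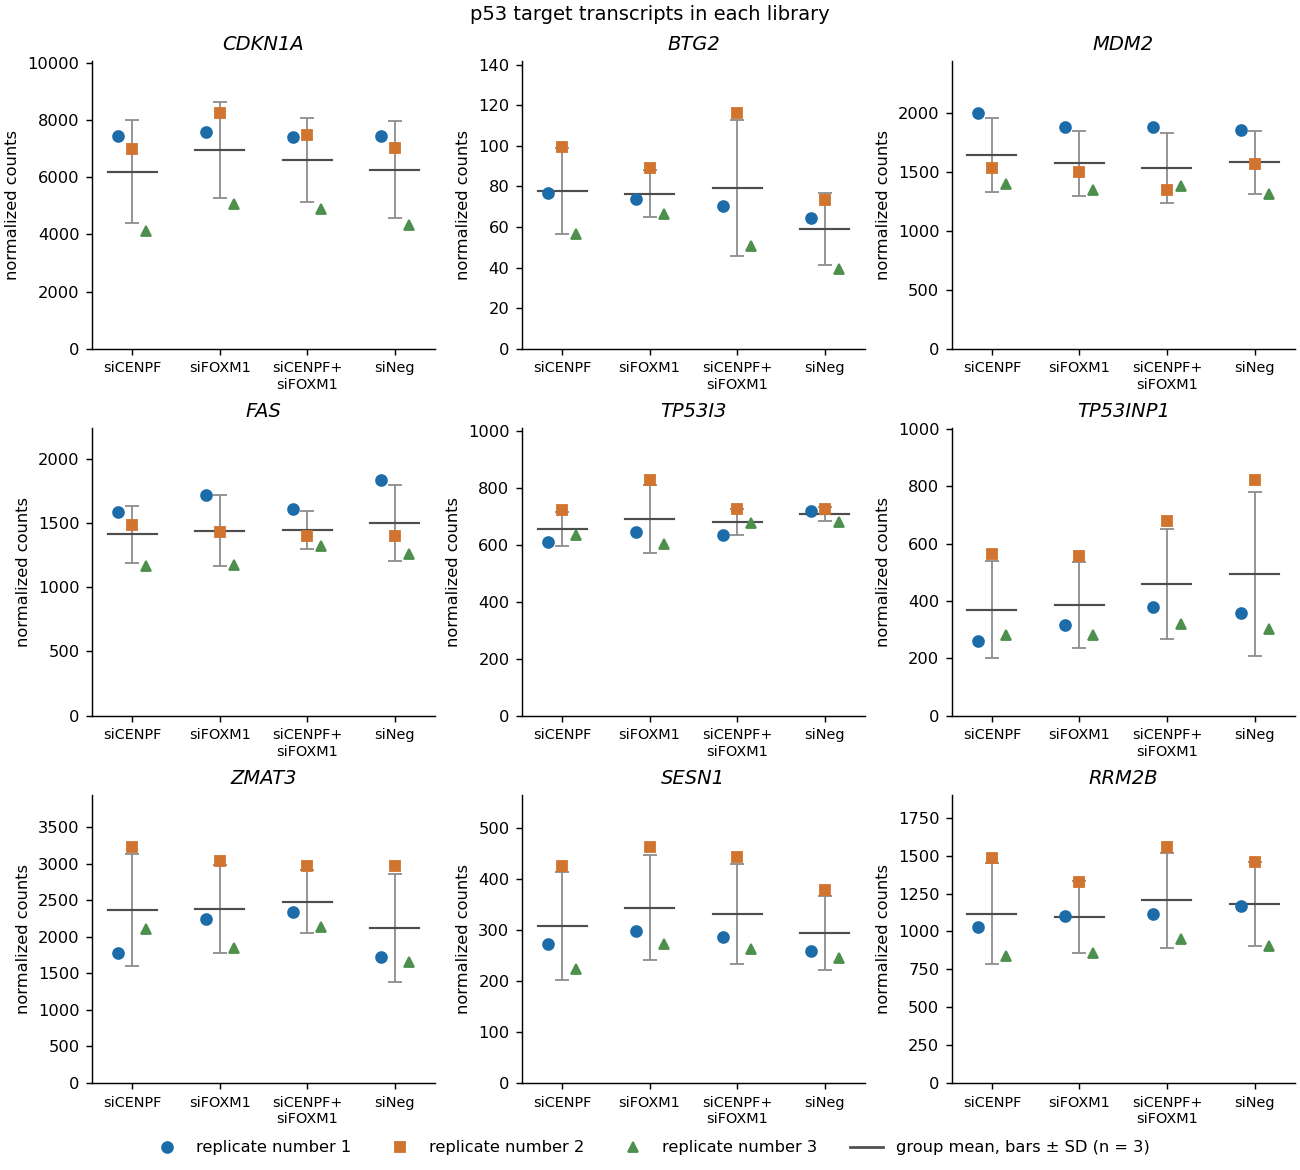
Normalized counts (vertical axes, starting at 0) of the 9 measured p53 targets in the 12 libraries, by siRNA group, with the marker giving the replicate number, a line for the group mean and bars for ± 1 SD (n = 3). The highest or the lowest library has the same number in all 4 groups, as for CDKN1A, where number 3 has 4126 to 5064 normalized counts and the others 6997 to 8250.

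Without a term for the replicate number, 0 of the 9 genes passed the test in each siRNA comparison. In limma on log2(normalized count + 1), with p-values adjusted over all 14857 genes tested, 0 of 9 were called with siCENPF against siNeg, where 0.337% of all genes were called. Counts were 0 of 9 with siFOXM1 against siNeg (0.66% of all genes) and 0 of 9 with both siRNAs against siNeg (0.458%). They were 0 of 9 with both siRNAs against siCENPF alone (0.0808%) and against siFOXM1 alone (0.00673%), and also in the interaction, which sets the effect of both siRNAs against the effects of the single ones added up (0%), and in the F test over the 4 groups (0.794%). At an unadjusted p under 0.05 the count was 0 of 9 in each of these. Over all genes that count was 821 with siCENPF, 1155 with siFOXM1 and 1093 with both against siNeg, and 353 in the interaction. edgeR and DESeq2 on reads recovered from the deposited values, likewise without that term, also called 0 of 9. The groups' libraries did not overlap for 0 of 9 genes in any pair compared, against 9.31% of all genes with siCENPF, 13.4% with siFOXM1 and 12.9% with both, each against siNeg, and 7.43% with both against siCENPF and 6.79% against siFOXM1.

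The median log2 fold change of the 9 genes against siNeg was -0.02 with siCENPF, -0.01 with siFOXM1 and 0.03 with both, and that of all genes was within 0.01 of 0 in all 3. The 3 comparisons share the siNeg libraries. The 95% confidence intervals over the 9 genes reached from a fold of 0.379 to 2.12 with siCENPF, 0.403 to 2.12 with siFOXM1 and 0.477 to 2.09 with both. These ends are those of TP53INP1 and BTG2, and the SE of a gene ran from 0.12 for TP53I3 to 0.46 for TP53INP1. In the authors' deposited tables the 9 genes had log2 fold changes of -0.43 to 0.40 with siCENPF, -0.36 to 0.38 with siFOXM1 and -0.11 to 0.43 with both, with no adjusted p-value below 0.999.

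With the replicate number as a block in the same limma fit, TP53INP1 passed the test. It fell by 0.36 on the log2 scale with siCENPF against siNeg (SE 0.10, adjusted p 0.0340, against 1.00 without the block), and was lower in 3 of 3 numbers. Its interaction was 0.61 (SE 0.14, adjusted p 0.0382), positive in 3 of 3 numbers, and its F test over the 4 groups had an adjusted p of 0.0269. In that fit 4.52% of all genes were called with siCENPF against siNeg (2.86% higher, 1.66% lower), 0.841% in the interaction (0.108% positive, 0.734% negative) and 11.8% in the F test, and TP53INP1 was the 1 of 9 genes called in each. The siCENPF call was lost without siNeg library 1 (adjusted p 0.0939), siNeg library 2 (0.265), siCENPF library 1 (0.205) or siCENPF library 2 (0.0770), and kept without each of the other 8 libraries. Without siNeg library 2, its log2 fold change with siCENPF was -0.25 with the block and 0.08, of the opposite sign, without it. In the latter fit siNeg lacks number 2 while siCENPF keeps it, so that value includes the difference between numbers. The interaction kept its call in 3 of 12 blocked fits with a library left out and the F test in 7 of 12.

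The blocked fit called 0 of 9 genes with siFOXM1 against siNeg, where it called 8.72% of all genes (4.48% higher, 4.23% lower), and 0 of 9 with both siRNAs against siNeg (7.9%, with 4.18% higher and 3.72% lower), against siCENPF alone (1.46%, with 0.431% higher and 1.03% lower) or against siFOXM1 alone (0.296%). CDKN1A with siFOXM1 came closest in the first of these, at 0.16 (95% confidence interval 0.05 to 0.27, adjusted p 0.0600), and was higher than siNeg in 3 of 3 numbers. It passed the threshold without siFOXM1 library 1 (adjusted p 0.0300), siCENPF library 2 (0.0335) or siCENPF library 1 (0.0414), and not in the other 9 such fits, with up to 0.318 without siFOXM1 library 2. ZMAT3 with both siRNAs, at 0.27 (adjusted p 0.103), passed without siCENPF library 1 (0.00886), siCENPF+siFOXM1 library 2 (0.0171) or siFOXM1 library 1 (0.0499), and with siCENPF it passed without siCENPF library 1 (0.29, adjusted p 0.0261). The blocked intervals over the 9 genes reached from a fold of 0.672 to 1.73 with siCENPF, 0.715 to 1.74 with siFOXM1 and 0.846 to 1.71 with both; the upper end is that of BTG2 in each. At an unadjusted p under 0.05 the blocked fit held 2 of 9 genes with siCENPF (BTG2 and TP53INP1), 4 with siFOXM1 (BTG2, CDKN1A, SESN1 and TP53INP1) and 1 with both (ZMAT3). All genes were not counted at that threshold in the blocked fit, so no background stands beside these counts. For MDM2 the blocked 95% interval of the log2 fold change was -0.07 to 0.18 with siCENPF, -0.13 to 0.12 with siFOXM1 and -0.17 to 0.08 with both.

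**Figure D2:**
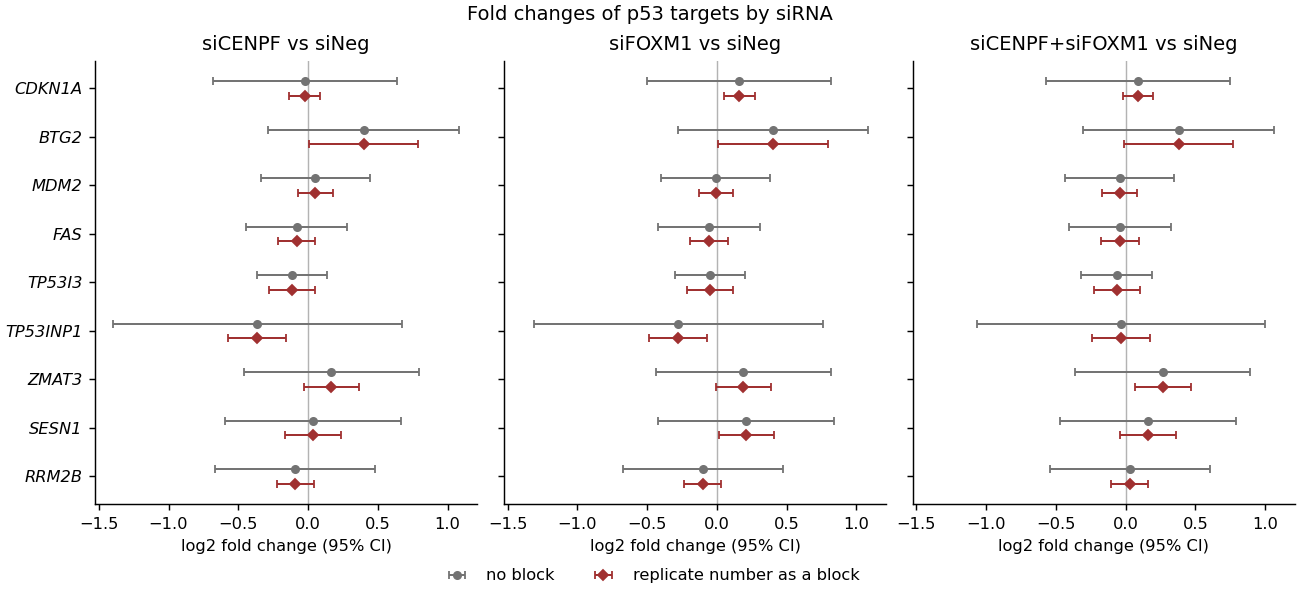
Log2 fold changes (horizontal axes) of the 9 p53 targets for each siRNA treatment against siNeg, with 95% confidence intervals from limma without (grey circles) and with (red diamonds) the replicate number as a block. The estimates are the same in both fits; all grey intervals include 0. The blocked, unadjusted intervals exclude 0 for 2 genes with siCENPF, 4 with siFOXM1 and 1 with both, of which TP53INP1 with siCENPF, -0.57 to -0.16, passed after adjustment. The share of all genes with such intervals was not counted.

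The replicate number separated these genes far more than the siRNA did. All 9 of 9 differed between numbers in the F test with the siRNA group in the model (adjusted p 3.40e-12 to 0.0206), where 46.4% of all genes were called. Without siFOXM1 library 2, TP53I3 no longer passed (adjusted p 0.217). The replicate number held a median of 88.3% of the sum of squares of the 9 genes and the siRNA group 6.30%, against medians of 41.0% and 22.2% over all genes. The share of the number was highest for RRM2B (93.9%), CDKN1A (93.1%) and MDM2 (92.7%) and lowest for BTG2 (70.7%) and TP53I3 (58.8%).

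**Figure D3:**
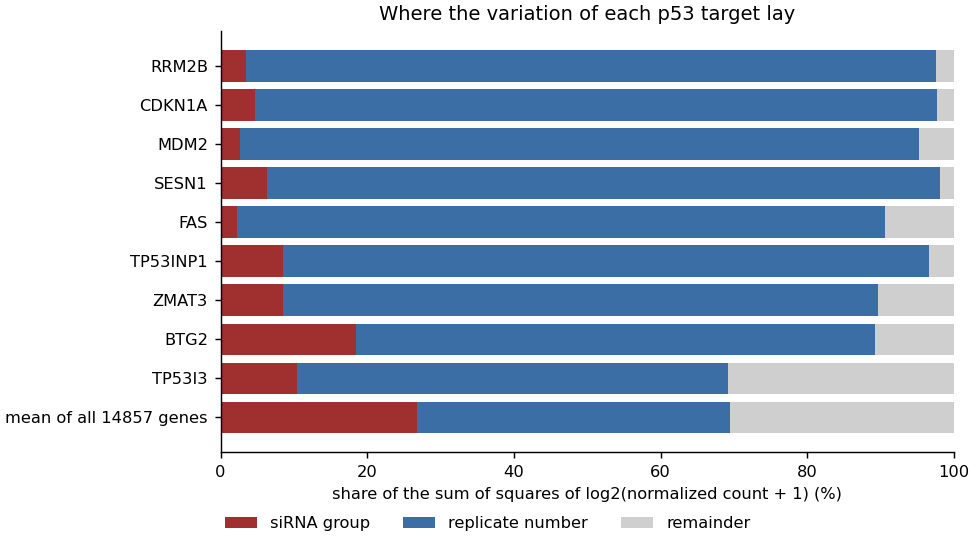
Share of the sum of squares of log2(normalized count + 1) over the 12 libraries (horizontal axis, in percent) that lies between siRNA groups, between replicate numbers and in the remainder, for each p53 target and as the mean of all genes. The replicate number takes 58.8% to 93.9% in the 9 genes and 42.6% in the mean of all 14857 genes.

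All 9 genes had their lowest mean in number 3, and 25.4% of all genes did. For TP53I3 that mean was nearly level with number 1 (649 and 651 normalized counts). Libraries of number 3 overlapped those of the next lowest number for MDM2, TP53I3, SESN1, TP53INP1, ZMAT3 and BTG2. Number 3 was not tested against number 1 directly. Their highest mean was in number 1 for MDM2 and FAS and, with libraries that overlapped those of number 2, for CDKN1A, and in number 2 for TP53I3, TP53INP1, ZMAT3, SESN1, RRM2B and BTG2. The libraries of the highest and the lowest number did not overlap for 9 of 9 genes, and for 39.4% of all genes. The fold between these 2 means was 2.21 for TP53INP1, 1.77 for BTG2, 1.70 for SESN1, 1.64 for RRM2B, 1.62 for CDKN1A, 1.57 for ZMAT3, 1.40 for MDM2, 1.37 for FAS and 1.16 for TP53I3.

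Number 3 was below number 2 in 8 of 9 genes by the test, none was above, and of all genes 33.5% were called, 16.2% lower and 17.3% higher. CDKN1A averaged 4605 ± 449 normalized counts in number 3 and 7439 ± 583 in number 2 (SD, n = 4, 1 library of each siRNA group), a log2 difference of -0.69 (SE 0.05). TP53INP1 averaged 297 ± 17.9 in number 3 and 656 ± 124 in number 2, a log2 difference of -1.12 (SE 0.09), the largest of the 9. The difference was -0.82 for BTG2, -0.77 for SESN1, -0.71 for RRM2B and -0.66 for ZMAT3, and smaller for FAS (-0.22) and TP53I3 (-0.21). MDM2, at 1361 ± 37.9 in number 3 and 1488 ± 96.8 in number 2, did not pass (-0.13, adjusted p 0.0611).

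Number 1 split the genes. It was above the mean of numbers 2 and 3 for MDM2 (log2 difference 0.42, SE 0.04), CDKN1A (0.36, SE 0.04) and FAS (0.35, SE 0.05), and below it for TP53INP1 (-0.43, SE 0.08), ZMAT3 (-0.28, SE 0.07) and SESN1 (-0.23, SE 0.07). CDKN1A in number 1, at 7470 ± 69.2 normalized counts, was level with number 2, and the difference came with the low number 3. RRM2B, TP53I3 and BTG2 did not pass (adjusted p 0.554, 0.215 and 0.916). Over all genes 30.9% were called, 16.5% higher and 14.5% lower in number 1. MDM2 averaged 1905 ± 65.8 normalized counts in number 1, and the 4 libraries lay above all 8 others. TP53INP1 averaged 328 ± 52.9 in number 1 and its libraries overlapped those of number 3. SESN1 averaged 279 ± 16.6 in number 1, 251 ± 21.9 in number 3 and 428 ± 36.1 in number 2, so number 2 stood apart from both others.

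**Figure D4:**
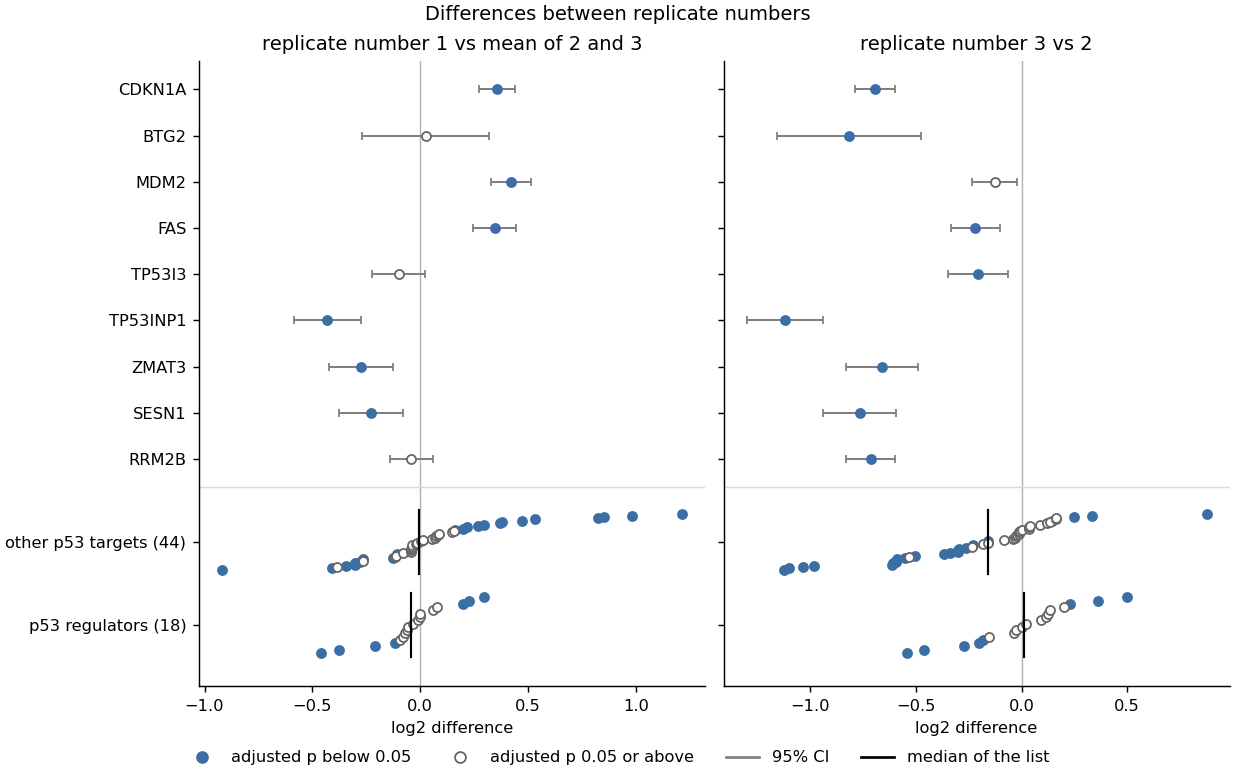
Log2 differences (horizontal axes) between replicate numbers for the 9 p53 targets with 95% confidence intervals, and for 44 other p53 targets and 18 p53 regulators, 1 point per gene, with the median of each list as a line. Filled points passed the test; number 3 is below number 2 for all 9 genes, and the comparison of number 1 with the mean of 2 and 3 has 3 genes called higher and 3 called lower.

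Other measures moved with the replicate number, and their part in these differences was not tested. Reads in genes were 13671250 to 16079871 in number 1, 17018969 to 35411230 in number 3 and 13681255 to 15801838 in number 2. All 17 listed interferon-stimulated genes were higher in number 1 than in the mean of 2 and 3 (median log2 difference 3.20), with summed normalized counts of 24466 to 66461 in number 1, 4791 to 6467 in number 3 and 5483 to 6023 in number 2. Of 12 genes of the integrated stress response 10 were higher in number 1 by the same test. Mitochondrially encoded mRNAs, taken as a sign of RNA quality, summed to 451908 to 502132 in number 1, 328520 to 403574 in number 3 and 353292 to 375547 in number 2. The 3 measured of 4 fibroblast and mesenchyme markers summed to 177190 to 186489 in number 1, 169967 to 184979 in number 3 and 157697 to 160031 in number 2, with COL1A2 at no more than 0.0273 FPKM. That sum is mostly VIM, which was higher in number 1 than in the mean of 2 and 3 and in number 3 than in number 2, while the other 2 measured markers were called lower in both tests (list median -1.17 for number 1 and -1.05 for number 3 against 2). Both measured markers of simple epithelium, KRT8 and KRT18, were called lower in number 1 than in the mean of 2 and 3 (median log2 difference -0.23) and in number 3 than in number 2 (-0.32). Of the 3 measured markers of differentiated retinal pigment epithelium 2 were called higher in number 3 than in number 2, and so was the keratinocyte marker KRT14. Of 3 blood markers 0 were measured, with CD3E at 0 FPKM throughout.

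The 18 regulators of p53, among them kinases, ubiquitin ligases and acetylases that set its level and activity, showed no siRNA call without the block, and 10 of 18 differed between numbers, where 46.4% of all genes did. The smallest adjusted p without the block was 0.743 with siCENPF, for CHEK1, the replication checkpoint kinase, 0.596 with siFOXM1, for PPP1R13L, an inhibitory partner of p53, and 0.543 with both siRNAs, for CHEK1. Among those that differed by number were CDKN2A, whose product ARF restrains MDM2 (adjusted p 3.03e-09), HIPK2, a kinase of p53 (2.39e-07), and CHEK2, a checkpoint kinase (0.000153). With the block 0 of 18 were called with siCENPF, 1 with siFOXM1 and 1 with both against siNeg, beside 4.52%, 8.72% and 7.9% of all genes. PPP1R13L was higher with siFOXM1 (0.29, SE 0.08, adjusted p 0.0185) and CHEK1 lower with both siRNAs (-0.22, SE 0.06, adjusted p 0.0352). MDM4, the MDM2 partner that also binds p53, averaged 245 ± 24.3 normalized counts in siCENPF, 223 ± 31.7 in siFOXM1, 255 ± 13.5 in siCENPF+siFOXM1 and 252 ± 32.3 in siNeg. It is named here after its values were seen.

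Of 48 other textbook p53 targets 44 were measured, and 0 of 44 were called with siCENPF, siFOXM1 or both siRNAs against siNeg without the block. At an unadjusted p under 0.05 there were 3 of 44 in each, beside 821, 1155 and 1093 of all 14857 genes. The smallest adjusted p were 0.456 for PPM1D with siCENPF and, for POLH, 0.209 with siFOXM1 and 0.571 with both. With the block 4 were called with siCENPF (2 higher, 2 lower), 6 with siFOXM1 (5 higher, 1 lower) and 2 with both (2 higher), beside 4.52%, 8.72% and 7.9% of all genes in the same comparisons. SESN2, a second sestrin, was called higher in all 3 comparisons, by 0.54 with siCENPF, 0.61 with siFOXM1 and 0.60 with both (SE 0.09 each, adjusted p 0.000404, 5.04e-05 and 7.21e-05 with the block, and 0.787 or above without). SESN2 averaged 498 ± 236 normalized counts in siCENPF, 503 ± 150 in siFOXM1, 504 ± 169 in siCENPF+siFOXM1 and 333 ± 120 in siNeg. BBC3, which encodes the death protein PUMA, was called higher with siCENPF (0.65, SE 0.16, adjusted p 0.0148) and siFOXM1 (0.61, adjusted p 0.0147), and BTG1, a relative of BTG2, with siFOXM1 (0.23, adjusted p 0.00590) and both (0.20, adjusted p 0.0170).

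The other targets called in the blocked fit were each called in 1 comparison against siNeg. PPM1D, the phosphatase WIP1 that dampens p53 signalling, was lower with siCENPF (-0.35, adjusted p 0.0278), as was the nuclease gene AEN (-0.25, adjusted p 0.0183). POLH, a translesion DNA polymerase (0.29, adjusted p 0.00878), and NINJ1, a membrane protein (0.32, adjusted p 0.0145), were higher with siFOXM1, and SERTAD1 was lower with it (-0.42, adjusted p 0.00652). Without the block none of these passed.

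By number, 32 of the 44 other targets differed, where 46.4% of all genes did, with a median log2 difference of -0.16 for number 3 against 2 (19 called lower, 4 higher), against -0.69 for the 9 genes and 0.00 for all genes. Against the mean of 2 and 3, number 1 was higher for 13 and lower for 9 of the 44, beside 16.5% and 14.5% of all genes. The smallest adjusted p by number were those of CCNG1, cyclin G1 (6.19e-12), PMAIP1, the death protein NOXA (6.71e-10), SESN2 (1.46e-09) and GADD45A, a damage-response gene (1.86e-09). CCNG1 averaged 2232 ± 91.6 normalized counts in number 1, 2291 ± 104 in number 3 and 3500 ± 190 in number 2, while GADD45A averaged 1819 ± 126 in number 1, 1372 ± 101 in number 3 and 1154 ± 104 in number 2.

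The genes closest in pattern were found by the root mean square difference of log2(normalized count + 1), centred on each gene's mean, over the 12 libraries. Among the 9 genes the closest pair was MDM2 and FAS (0.11), followed by SESN1 and RRM2B (0.15) and SESN1 and ZMAT3 (0.16), and the farthest pair was MDM2 and TP53INP1 (0.61). Outside the list, AP5Z1 (0.09), CEBPB (0.09) and RNF19B (0.10) were closest to MDM2, whose median difference from all genes was 0.26. SEZ6L2 (0.14) was among the 3 closest to CDKN1A, with a median over all genes of 0.38. These differences describe 12 libraries that share replicate numbers, and carry no test.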

How the data were processed

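The members and the lists of related genes were chosen with earlier results of these data known. The submitters' processing notes name hg38 with TopHat, Trimmomatic, bcl2fastq and edgeR. How the counts were normalized and whether counting used strand are details not given in the sources used here. Normalized counts, a signal on a count scale, were deposited by the authors for 14862 genes. They also deposited FPKM for 60279 genes and 3 edgeR tables holding, per the file headers, CPM, p-values, likelihood ratio scores and log2 fold changes. The length behind the deposited FPKM equals the summed exons of all transcripts in 80.6% of 14398 genes, so levels per length were recomputed over merged exons of GENCODE v29.

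Reads were recovered from CPM, which gave whole reads in 100% of values within 0.01 reads. Where CPM were missing for a library, reads came from FPKM and the deposited length. In the 172773 values with both sources, 0 reads differed. Reads were recovered in all libraries for 14556 genes, and the count tests ran on 14554 of these. The main test was limma 3.58.1 (R 4.3.3), with trend and robust moderation, on log2(normalized count + 1) over all 12 libraries with 4 group means. A gene was tested where 3 or more libraries had 10 or more normalized counts, which kept 14857. Tests were two-sided, with Benjamini-Hochberg adjustment and a threshold of 0.05. Fold changes on this scale understate the change of low genes. Replicate numbers were tested with the siRNA group in the model.

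The numbers pair the libraries: deviations from group means correlated by 0.272 to 0.639 across genes in the 18 same-number pairs and by -0.510 to 0.0248 in the others. The pairing comes from the numbers in the labels and this check. Alternatives were the block, a pseudocount of 5, no filter, FPKM (pseudocount 0.5), equal library medians, edgeR 4.0.16 with and without the block, DESeq2 1.42.0 and each library left out. The block with each library left out was added after the data were seen. The 9 measured members, CENPF and FOXM1 were named throughout, and from each p53 list up to 4 genes with the smallest adjusted p per comparison against siNeg or by number; genes called only under the block were named after their values were seen. Some genes that this rule names are not reported here. The tests were checked on simulated data in which far fewer genes differed by replicate number than here, and none of those by siRNA. That check does not cover the test without the block where many genes differ by number.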

Additional observations from a re-analysis of the deposited data

Results flagged for a closer look

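TP53INP1 is listed because its response to both siRNAs together differed from the sum of the single responses in the test of that interaction with the replicate number as a block (log2 value 0.61, SE 0.14, adjusted p 0.0382, positive in 3 of 3 numbers). Without the block the same value had an SE of 0.66 and an adjusted p of 1.00.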

How the results depend on the processing

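The count of 0 of 9 p53 targets called in each siRNA comparison held with a pseudocount of 5, no filter, FPKM, equal library medians, edgeR or DESeq2, and with each library left out. All of these fits lack a term for the replicate number, so their error includes the differences between numbers. With the replicate block TP53INP1 was called, giving 1 of 9 with siCENPF against siNeg, 1 in the interaction and 1 in the F test; edgeR with the block gave 1, 1 and 2, the second being CDKN1A. With the block and each library left out, an alternative chosen after seeing the data, members called ran from 0 to 1 in the comparisons against siNeg and the interaction and from 0 to 2 in the F test, naming TP53INP1, CDKN1A or ZMAT3. By replicate number 9 of 9 were called with a pseudocount of 5, no filter, FPKM, equal medians or edgeR, and 8 to 9 with a library left out.

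Counts over all genes were largest with the replicate block. In the order siCENPF, siFOXM1 and both against siNeg, both against siCENPF, both against siFOXM1, the interaction and the F test, limma without a block called 50, 98, 68, 12, 1, 0 and 118 genes. With the replicate block it called 671, 1295, 1174, 217, 44, 125 and 1758, edgeR with the block 702, 1322, 1249, 231, 42, 118 and 1802, and DESeq2 135, 244, 166, 32, 4, 21 and 296. With a library left out and no block the counts ran from 21 to 48, 34 to 112, 30 to 80, 2 to 12, 1 to 1, 0 to 0 and 48 to 101, and with the block from 413 to 641, 660 to 1620, 667 to 1533, 104 to 281, 9 to 72, 64 to 148 and 1170 to 1876. The cause was not tested. In limma on all 12 libraries, the block changed no call of a member other than those of TP53INP1. Of 864 refitted member fold changes 0 moved by 1 SD or more, and 53 changed sign, all in fits with a library left out. Among them was TP53INP1 with siCENPF, at -0.36, which became 0.08 without siNeg library 2 in the fit with no block. That move, too, was under 1 SD, so the count of 0 is a coarse measure of stability. With the block and without that library the value was -0.25. With 3 libraries a group and 1 to 11 reads, GDF15 is limited by depth, and BTG2 by its 45 to 99 reads.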
